A study of Homo sapiens with 42 samples.

Results

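The data described here are the mRNA levels of the NF-kB subunits and of their feedback genes in 2 human lung cancer cell lines after 2 Gy of gamma radiation. The list names 5 subunits (NFKB1, NFKB2, RELA, RELB and REL) and 5 feedback genes (NFKBIA, NFKBIE, NFKBIZ, TNFAIP3 and BIRC3). A member is the table entry whose single gene symbol is on the list, which gave 9 of the 10 genes among 18404 genes in all, each from 1 entry. BIRC3 was not analysed here. H460 is a large-cell lung carcinoma line that the study calls radiosensitive, and H1299 is a non-small cell lung carcinoma line that it calls radioresistant. Each line was measured on 6 arrays before irradiation (0 h) and on 3 arrays at each of 2, 4, 8, 12 and 24 h after exposure, 42 arrays in all, and exponentially growing cells were used throughout. Radiosensitive and radioresistant cells are each represented by 1 line. The protocol mentions unirradiated control cells, but no array after 0 h is labelled as one, so the effect of radiation and that of time in culture cannot be told apart. Levels are log2 intensities. A change is the later mean minus the 0 h mean in log2 units, given ± the SE that limma fitted, and it is called where the adjusted p over all genes is under 0.05. In bulk RNA, fewer cells expressing a gene and less RNA of it per cell cannot be told apart.

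NF-kB is a family of dimeric transcription factors that inhibitor proteins of the IkB family hold inactive in the cytoplasm. Inflammatory cytokines and DNA breaks activate the IkB kinase (IKK), the inhibitors are then marked and degraded, and the dimers enter the nucleus and switch on genes of inflammation and survival. Several of those genes encode the inhibitors themselves, which closes a negative feedback loop. A second, slower branch runs through the kinase NIK, encoded by MAP3K14, and the processing of the NFKB2 precursor, whose product pairs with RELB.

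The arrays differed in the width of their value distributions. The mean interquartile range of an array, in log2 units, was 2.84 ± 0.12 (SD, n = 3) at 2 h and 3.64 ± 0.021 (SD, n = 3) at 8 h in H460, against 3.34 ± 0.17 (SD, n = 6) at 0 h. In H1299 it was 3.82 ± 0.0997 (SD, n = 3) at 12 h, against 3.58 ± 0.17 (SD, n = 6) at 0 h. Width was therefore also fitted as a covariate, and its values stand beside most of the calls at a single time that it ends. For the courses of members only the number called with width fitted is given. At 2 h in H460 all 3 arrays were narrow, so width and time cannot be told apart there. At 8, 12 and 24 h the H460 arrays lay between 3.59 and 3.73, against 3.14 to 3.63 at 0 h. Width and time are thus hard to tell apart at these times too. Of 5 epithelial markers, the keratin genes KRT8 and KRT18 lay between 10.4 and 12.5 on all arrays of both lines. KRT19 lay between 10.99 and 11.92 in H460 and between 4.48 and 5.65 in H1299, and the adhesion genes EPCAM and CDH1 lay between 3.23 and 4.58 in the lines. Of 4 leukocyte markers, PTPRC lay between 2.36 and 3.07 and CD3E between 3.17 and 4.64, where the lowest value of any gene was 1.60. CD68, a lysosomal gene of macrophages, lay higher, between 8.59 and 9.11, and CD14 between 5.49 and 6.60 in H460 and 3.99 and 5.09 in H1299. Of 5 fibroblast markers, DCN, LUM and PDGFRA lay between 2.11 and 5.26, and the collagen genes COL1A1 and COL1A2 between 4.56 and 7.28.

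Several members have sequences of the kind NF-kB itself binds in front of their start sites. The 4 promoters shown belong to the 3 genes with the smallest p-values for a difference of courses between the lines, from 250 bases before to 50 bases after the annotated start (RefSeq, GRCh38.p14). Capitals mark matches to the 10-base kB consensus on either strand, and overlapping matches run together.
NFKBIA (chr14:35404700-35404999, minus strand): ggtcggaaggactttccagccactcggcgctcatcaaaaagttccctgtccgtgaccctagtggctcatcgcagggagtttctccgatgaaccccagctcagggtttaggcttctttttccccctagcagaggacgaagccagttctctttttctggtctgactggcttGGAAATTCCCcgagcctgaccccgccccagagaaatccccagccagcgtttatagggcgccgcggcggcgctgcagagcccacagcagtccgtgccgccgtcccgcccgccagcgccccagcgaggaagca
TNFAIP3 (chr6:137867009-137867308, plus strand): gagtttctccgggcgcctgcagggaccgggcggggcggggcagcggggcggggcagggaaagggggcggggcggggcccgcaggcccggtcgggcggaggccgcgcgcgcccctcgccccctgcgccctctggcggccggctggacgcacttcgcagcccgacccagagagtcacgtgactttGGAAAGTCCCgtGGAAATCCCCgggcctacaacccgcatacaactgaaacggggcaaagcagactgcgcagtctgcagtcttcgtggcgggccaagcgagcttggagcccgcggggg
NFKB2 start A (chr10:102394328-102394627, plus strand): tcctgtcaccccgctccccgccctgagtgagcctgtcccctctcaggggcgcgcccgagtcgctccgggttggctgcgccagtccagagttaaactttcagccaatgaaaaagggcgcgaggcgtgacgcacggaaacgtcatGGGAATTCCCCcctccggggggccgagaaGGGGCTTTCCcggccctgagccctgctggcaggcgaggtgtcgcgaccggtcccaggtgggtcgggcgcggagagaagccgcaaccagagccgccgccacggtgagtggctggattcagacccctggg
NFKB2 start B (chr10:102395455-102395754, plus strand): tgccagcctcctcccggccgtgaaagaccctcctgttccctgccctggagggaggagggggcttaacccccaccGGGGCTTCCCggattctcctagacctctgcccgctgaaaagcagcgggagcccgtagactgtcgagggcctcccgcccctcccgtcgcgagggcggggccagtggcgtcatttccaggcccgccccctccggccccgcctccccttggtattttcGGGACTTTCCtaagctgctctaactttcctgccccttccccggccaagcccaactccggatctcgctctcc
Of the members listed there, 7 of 8 had at least 1 match (NFKB1, NFKB2, REL, NFKBIA, NFKBIZ, TNFAIP3 and BIRC3), against 1937 of 27305 genes in all (7.09%). Over all windows it was 9 of 13, against 5.91% of all windows. RELA was the member without a match in its 2 windows, and NFKB1 and NFKB2 each had 1 further window without one, which for NFKB2 was chr10:102393860-102394159. TNFAIP3, which encodes a ubiquitin-editing enzyme that switches IKK signalling off, held 2 matches, 67 and 55 bases upstream of the start. NFKBIA, which encodes the classical cytoplasmic inhibitor IkB-alpha, held 1 match 81 bases upstream. A match describes these letters and is not a measured binding site.

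Before irradiation the lines differed at 8 of the 9 genes (limma, adjusted p under 0.05), 5 higher and 3 lower in H460, where 55.1% of all genes did. The arrays of the lines did not overlap for those 8 genes, where 35.3% of all genes had no overlap. TNFAIP3, NFKBIA, NFKBIZ, REL and NFKB2 were the higher ones. TNFAIP3 differed most. Its 6 H460 arrays had a lowest, median and highest level of 9.40, 9.54 and 9.70, and its 6 H1299 arrays 5.94, 5.97 and 6.10. The lowest H460 array thus stood far above the highest H1299 array, and the difference was 3.54 ± 0.075 (11.7-fold, adjusted p = 1.33e-18). NFKBIA had 9.20, 9.52 and 9.74 in H460, against 8.10, 8.20 and 8.35 in H1299, a difference of 1.29 ± 0.091 (2.44-fold, adjusted p = 1.97e-10). NFKBIZ, which encodes a nuclear member of the IkB family, had 6.62, 6.88 and 7.14 in H460, against 5.396, 5.67 and 6.04 in H1299 (difference 1.22 ± 0.12, adjusted p = 2.53e-08). These 3 feedback genes were higher in H460 with no overlap between the lines. NFKBIE, the gene of IkB-epsilon, stood the other way, at 5.86, 6.43 and 6.83 in H460, against 7.05, 7.29 and 7.40 in H1299 (difference -0.87 ± 0.13, adjusted p = 9.14e-06).

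Among the subunits, REL and NFKB2 were higher in H460 and RELA and RELB were lower. REL, the subunit best known from lymphoid cells, had a lowest, median and highest level of 7.39, 7.57 and 7.74 in H460, against 6.38, 6.54 and 6.79 in H1299 (difference 0.98 ± 0.097, adjusted p = 3.65e-08). NFKB2 had 8.71, 8.93 and 9.07 in H460, against 8.26, 8.31 and 8.43 in H1299 (difference 0.58 ± 0.072, adjusted p = 7.14e-07). RELA, which encodes the main activating subunit of the classical dimer, had 8.39, 8.51 and 8.70 in H460, against 8.78, 8.98 and 9.06 in H1299 (difference -0.43 ± 0.074, adjusted p = 4.73e-05). RELB had 6.73, 6.97 and 7.10 in H460, against 7.66, 7.83 and 8.02 in H1299 (difference -0.89 ± 0.085, adjusted p = 1.91e-08). For each of these 4 subunits the arrays of the lines did not overlap. NFKB1, the precursor of the partner of RELA in the classical dimer, was the exception, with 8.64, 8.96 and 9.16 in H460, against 8.59, 9.005 and 9.21 in H1299. Its difference of -0.024 ± 0.11 did not pass (adjusted p = 0.862), with a 95% interval of -0.25 to 0.20.

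**Figure D1:**
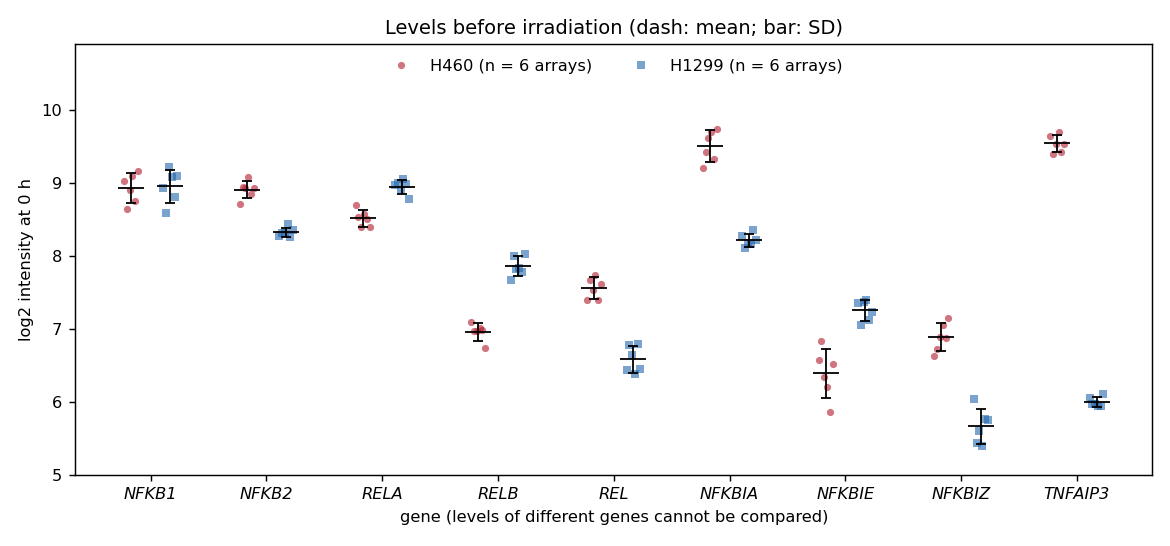
Levels of the 9 genes at 0 h in log2 intensity, with 1 point per array, H460 (red circles) left of H1299 (blue squares), a dash for the mean and a bar for the SD (n = 6 each). The arrays of the lines overlap for NFKB1 and are apart for the other 8 genes, most for TNFAIP3.

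The time courses ask how each line responded over 24 h, and they were tested by quadratic regression on hours over the 21 arrays of a line. In H460 a course was called for 5 of the 9 members (55.6%), against 41.9% of all genes, and in H1299 for 7 of 9 (77.8%), against 36.5%. The H460 courses were those of NFKB1, RELA, RELB, NFKBIA and TNFAIP3, and the smallest adjusted p were those of RELB (2.15e-05) and TNFAIP3 (0.000267). With 1 array left out the H460 count ranged from 2 to 5, being 2 without 24 h replicate 1 or 2. The NFKB1 and NFKBIA courses in H460 stayed called in the same direction in only 7 and 6 of these 21 fits, and that of RELA in 19. In the 12 other settings those of NFKB1, NFKBIA and RELA stayed so in 9, 7 and 8. The H1299 courses were those of NFKB1, NFKB2, RELA, REL, NFKBIA, NFKBIE and TNFAIP3, with the smallest adjusted p for NFKBIA (1.64e-06), TNFAIP3 (4.17e-06) and NFKB2 (7.83e-06). The REL course in H1299 stayed called in 11 of 21 fits with 1 array left out and in 7 of 12 other settings, and the NFKBIE course in 21 of 21 and 7 of 12.

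At single times, 3 members were lower in H460 at 2 h, against 40.4% of all genes called and 23.7% called lower, so their share was near that of all genes. At 4, 8, 12 and 24 h the H460 counts were 1, 2, 4 and 3 of 9, against 2.92%, 16.9%, 33.5% and 28.7% of all genes. When width was a covariate limma called 0, 1, 0, 2 and 1 members in H460 at 2, 4, 8, 12 and 24 h, with 1 member at 2 h and 2 at 8 h at an unadjusted p under 0.05. In H1299 2 members were higher at 2 h, against 13.8% of all genes called and 5.88% called higher. At 4, 8, 12 and 24 h the H1299 counts were 6, 6, 5 and 4 of 9, against 15.9%, 24.6%, 29.7% and 11.7% of all genes. When width was a covariate the H1299 counts were 5, 7, 3, 3 and 4 at 2, 4, 8, 12 and 24 h, and the 2 h count was 4 without the narrow arrays and 2 to 4 with 1 array left out. These counts describe genes chosen with results known.

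**Figure D2:**
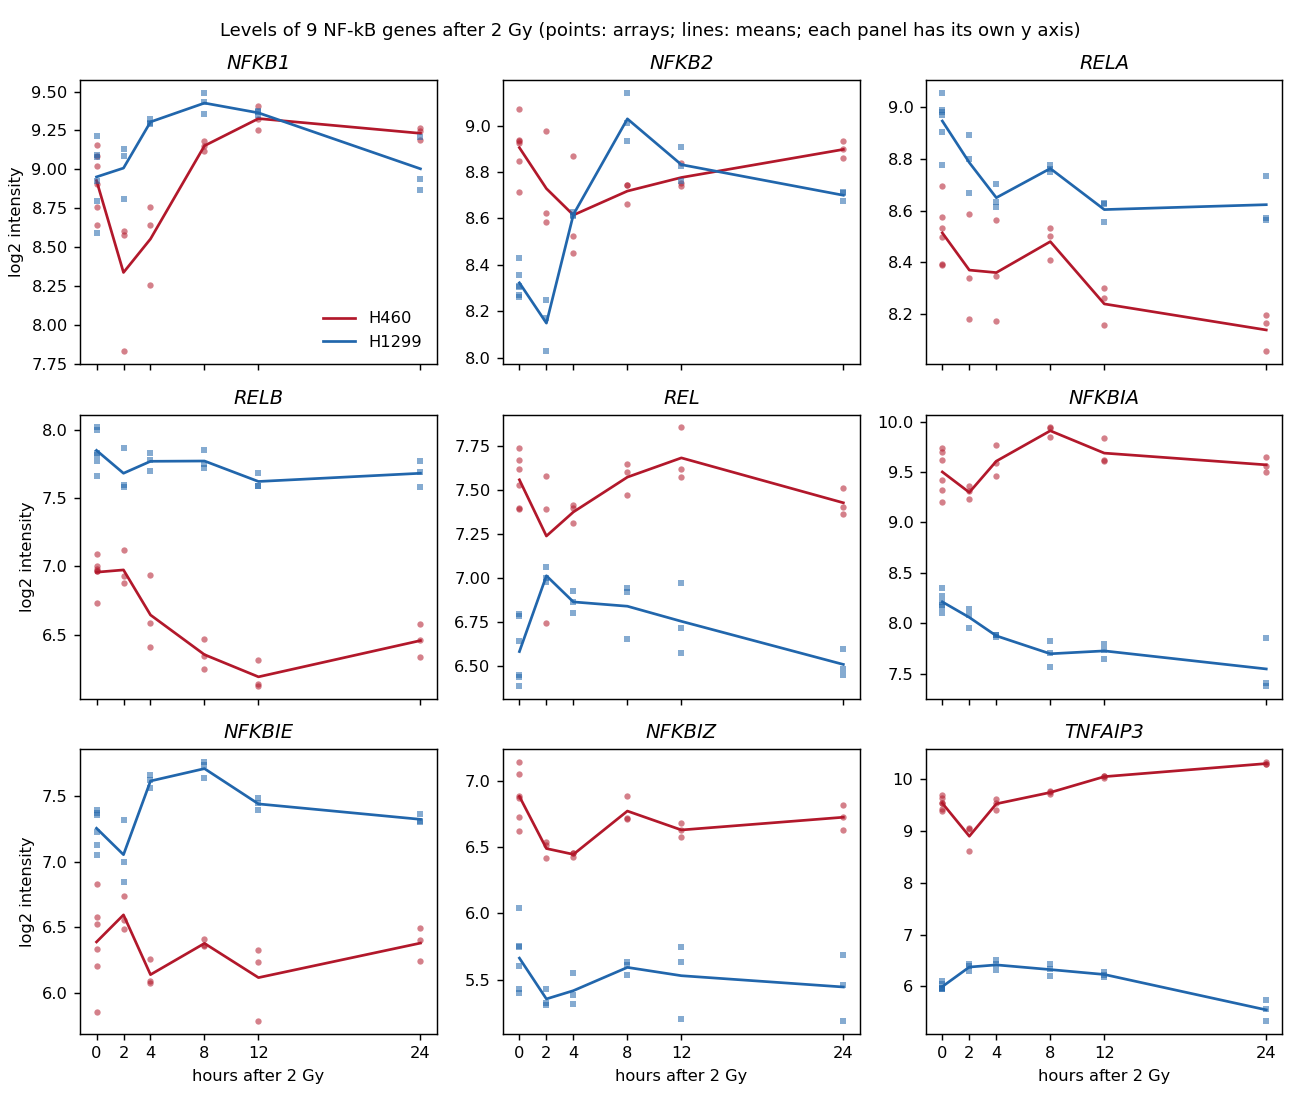
Log2 intensity of each member against hours after 2 Gy, with a point per array and a line through the group means, H460 in red and H1299 in blue, and a y axis of its own in each panel. RELB declines to 12 h and TNFAIP3 climbs to 24 h in H460, while NFKB2 peaks at 8 h and NFKBIA declines to 24 h in H1299.

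In H460 the subunit RELB fell. Its level had a lowest, median and highest value of 6.73, 6.97 and 7.10 at 0 h, stood at 6.88, 7.12 and 6.93 at 2 h and 6.41, 6.94 and 6.58 at 4 h, and then at 6.25, 6.47 and 6.34 at 8 h, 6.13, 6.31 and 6.12 at 12 h and 6.34, 6.46 and 6.57 at 24 h. All arrays from 8 h on lay below every 0 h array. The change was -0.61 ± 0.12 at 8 h (adjusted p = 0.00134), -0.77 ± 0.12 at 12 h (adjusted p = 3.79e-05) and -0.50 ± 0.12 at 24 h (adjusted p = 0.0021), and the fall at 12 h was 1.7-fold. At 8, 12 and 24 h, 6.22%, 16.8% and 12.4% of all genes were called lower. With width as a covariate the changes at 8 and 24 h were -0.51 (adjusted p = 0.153) and -0.40 (adjusted p = 0.118) and no longer passed, while that at 12 h was -0.66 (adjusted p = 0.0207).

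RELA declined more modestly in H460. It stood at 8.30, 8.26 and 8.16 at 12 h and 8.05, 8.16 and 8.19 at 24 h, against a lowest, median and highest of 8.39, 8.51 and 8.70 at 0 h. Both sets lay below all 0 h arrays, with changes of -0.28 ± 0.10 (adjusted p = 0.0401) and -0.38 ± 0.10 (adjusted p = 0.00772), which were -0.19 (adjusted p = 0.564) and -0.29 (adjusted p = 0.225) with width as a covariate. NFKB1 moved both ways. It had 8.60, 8.58 and 7.83 at 2 h and 9.32, 9.41 and 9.25 at 12 h, against 8.64, 8.96 and 9.16 as lowest, median and highest at 0 h, and the 2 h arrays lay below and the 12 h arrays above all 0 h arrays. The changes were -0.59 ± 0.14 at 2 h (adjusted p = 0.00211) and 0.40 ± 0.14 at 12 h (adjusted p = 0.0308). With width as a covariate they were -0.076 (adjusted p = 0.953) and 0.058 (adjusted p = 0.916), and NFKB1 is the member with the steepest slope on array width in both lines. At 2 h replicate 3 stood lowest, and without it the change was -0.34 (adjusted p = 0.0462). The NFKB1 call at 12 h also ended without 0 h replicates 2 or 5 or 12 h replicates 1, 2 or 3 (adjusted p = 0.0597 to 0.118), and the RELA call at 12 h without 0 h replicates 1, 2, 4 or 5 or 12 h replicates 1, 2 or 3 (adjusted p = 0.0548 to 0.159). Of the alternative settings, 3 of 10 ended the NFKB1 call at 12 h and 5 of 10 the RELA call at 12 h. NFKB2 and REL had no called change in H460 at 2, 4, 8, 12 or 24 h. NFKB2 changes lay between -0.29 and -0.0074, and REL changes between -0.32 and 0.12.

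Of the feedback genes, TNFAIP3 first dipped and then rose in H460. It had 9.40, 9.54 and 9.70 as lowest, median and highest at 0 h, 9.06, 9.03 and 8.61 at 2 h, 9.62, 9.41 and 9.55 at 4 h, 9.73, 9.75 and 9.77 at 8 h, 10.03, 10.05 and 10.07 at 12 h and 10.33, 10.29 and 10.29 at 24 h. The 2 h arrays lay below all arrays at 0 h, and those of 8, 12 and 24 h above them. The change was -0.64 ± 0.095 at 2 h (adjusted p = 5.61e-05), 0.51 ± 0.095 at 12 h (adjusted p = 0.000362) and 0.76 ± 0.095 at 24 h (1.7-fold, adjusted p = 1.39e-06), where 16.2% of all genes were called higher at 24 h. With width as a covariate the 24 h rise was 0.65 (adjusted p = 0.0012), whereas the values at 2 h (-0.45, adjusted p = 0.473) and 12 h (0.39, adjusted p = 0.114) did not pass.

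NFKBIA rose in H460 at 8 h, to 9.93, 9.94 and 9.85, against a lowest, median and highest of 9.20, 9.52 and 9.74 at 0 h. The change was 0.41 ± 0.11 (adjusted p = 0.0122), but with width as a covariate it was 0.14 (adjusted p = 0.813), and it was 0.26 (adjusted p = 0.0808) after quantile normalization. It also ended without 8 h replicates 1 or 2 (adjusted p = 0.0603 to 0.0623). At 24 h its change of 0.07 ± 0.11 did not pass (adjusted p = 0.644). NFKBIZ was lower at 2 and 4 h, with 6.54, 6.52 and 6.42 and 6.46, 6.42 and 6.46, against 6.62, 6.88 and 7.14 as lowest, median and highest at 0 h. Its changes were -0.39 ± 0.11 (adjusted p = 0.00596) and -0.44 ± 0.11 (adjusted p = 0.025), and it was the 1 member called at 4 h. The 4 h call ended without 0 h replicate 4 or 4 h replicates 1, 2 or 3 (adjusted p = 0.0521 to 0.117). With the replicate number as a block both calls ended, at -0.25 (adjusted p = 0.0987) and -0.30 (adjusted p = 0.16), and 4 of 9 settings ended the 2 h call and 3 of 10 the 4 h call. With width as a covariate the 2 h value was -0.02 (adjusted p = 0.985). NFKBIE had no called change in H460 at the 5 times, and its 0 h arrays spanned 5.86, 6.43 and 6.83 as lowest, median and highest.

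**Figure D3:**
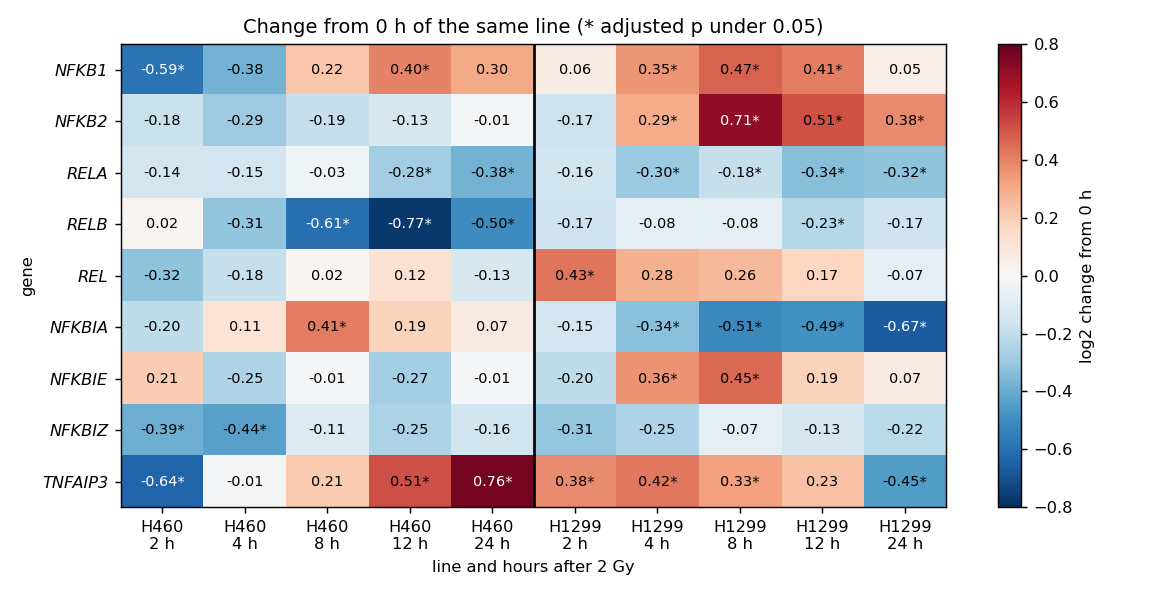
Log2 change from 0 h of the same line for each member (rows) at 2 to 24 h (columns), H460 left and H1299 right, with red for higher, blue for lower and an asterisk for adjusted p under 0.05. In H1299 NFKB2 is higher from 4 h on, with 0.71 at 8 h, and NFKBIA is lower from 4 h on, with -0.67 at 24 h.

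In H1299 the subunit NFKB2 rose. Its level was 8.26, 8.31 and 8.43 (lowest, median and highest) at 0 h and 8.17, 8.25 and 8.03 at 2 h, then 8.63, 8.61 and 8.61 at 4 h, 9.01, 8.93 and 9.14 at 8 h, 8.83, 8.76 and 8.91 at 12 h and 8.71, 8.71 and 8.67 at 24 h. Every array from 4 h on lay above all 0 h arrays. The change was 0.29 ± 0.062 at 4 h (adjusted p = 0.00144), 0.71 ± 0.062 at 8 h (1.63-fold, adjusted p = 4.08e-08), 0.51 ± 0.062 at 12 h (adjusted p = 1.16e-06) and 0.38 ± 0.062 at 24 h (adjusted p = 0.000172). The background of genes called higher at these times was 10.0%, 15.0%, 16.6% and 8.53%. When width was a covariate the 8 h value was 0.72 (adjusted p = 3.43e-07).

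The other subunits of H1299 went different ways. NFKB1 stood at 9.32, 9.29 and 9.30 at 4 h, 9.43, 9.35 and 9.49 at 8 h and 9.37, 9.37 and 9.35 at 12 h, all above the 0 h arrays (8.59, 9.005 and 9.21 as lowest, median and highest). Its rise was 0.35 ± 0.10 at 4 h (adjusted p = 0.0156), 0.47 ± 0.10 at 8 h (adjusted p = 0.00107) and 0.41 ± 0.10 at 12 h (adjusted p = 0.00306). With width as a covariate the 8 h value was 0.26 (adjusted p = 0.0597) and the 12 h value 0.19 (adjusted p = 0.193), and the 4 h call ended without 4 h replicates 1, 2 or 3 (adjusted p = 0.0524 to 0.0687). The NFKB1 arrays were at 8.94, 8.87 and 9.21 at 24 h, a change of 0.052 ± 0.10 (adjusted p = 0.833). REL rose early, to 7.06, 6.97 and 7.00 at 2 h, against 6.38, 6.54 and 6.79 as lowest, median and highest at 0 h (change 0.43 ± 0.10, adjusted p = 0.00565). By 24 h its change was -0.073 ± 0.10 (adjusted p = 0.752). RELA fell to 8.63, 8.70 and 8.61 at 4 h, 8.62, 8.56 and 8.63 at 12 h and 8.56, 8.74 and 8.57 at 24 h, against 8.78, 8.98 and 9.06 as lowest, median and highest at 0 h. These arrays lay below those at 0 h, with changes of -0.30 ± 0.064 (adjusted p = 0.00196), -0.34 ± 0.064 (adjusted p = 0.000251) and -0.32 ± 0.064 (adjusted p = 0.00126). Its smaller change at 8 h, -0.18 ± 0.064 (adjusted p = 0.0385), ended in 6 of 10 alternative settings, width as a covariate among them. It also ended without 0 h replicates 1, 4 or 5 or 8 h replicates 1, 2 or 3 (adjusted p = 0.0562 to 0.11). RELB fell by 0.23 ± 0.081 at 12 h (adjusted p = 0.0344), a call that ended with width as a covariate (-0.089, adjusted p = 0.547) and without 0 h replicates 2 or 6 or 12 h replicates 2 or 3 (adjusted p = 0.0572 to 0.13), and in 5 of 10 settings in all.

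NFKBIA fell in H1299. It had 8.10, 8.20 and 8.35 as lowest, median and highest at 0 h, 7.96, 8.14 and 8.08 at 2 h, 7.88, 7.86 and 7.89 at 4 h, 7.57, 7.70 and 7.82 at 8 h, 7.65, 7.74 and 7.79 at 12 h and 7.41, 7.85 and 7.38 at 24 h. From 4 h on every array lay below all 0 h arrays. The change was -0.34 ± 0.086 at 4 h (adjusted p = 0.00748), -0.51 ± 0.086 at 8 h (adjusted p = 9.95e-05), -0.49 ± 0.086 at 12 h (adjusted p = 0.000134) and -0.67 ± 0.086 at 24 h (1.59-fold lower, adjusted p = 8.87e-06), when 3.21% of all genes were called lower. The 4 h value with the replicate number as a block did not pass (-0.31, adjusted p = 0.0506).

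TNFAIP3 in H1299 went up early and down late. It had 5.94, 5.97 and 6.10 as lowest, median and highest at 0 h, 6.40, 6.43 and 6.30 at 2 h, 6.51, 6.43 and 6.31 at 4 h, 6.34, 6.20 and 6.44 at 8 h, 6.19, 6.28 and 6.22 at 12 h and 5.75, 5.33 and 5.56 at 24 h. The arrays of 2 to 12 h lay above all those at 0 h and the 24 h arrays below them. The change was 0.38 ± 0.090 at 2 h (adjusted p = 0.0062), 0.42 ± 0.090 at 4 h (adjusted p = 0.00184), 0.33 ± 0.090 at 8 h (adjusted p = 0.0094), 0.23 ± 0.090 at 12 h (adjusted p = 0.0517) and -0.45 ± 0.090 at 24 h (adjusted p = 0.0014). The 12 h value did not pass, and the 8 h call ended without 8 h replicate 3 (adjusted p = 0.0844) and with width as a covariate (0.28, adjusted p = 0.0701). NFKBIE rose to 7.62, 7.66 and 7.56 at 4 h and 7.73, 7.76 and 7.64 at 8 h, against 7.05, 7.29 and 7.40 as lowest, median and highest at 0 h (changes 0.36 ± 0.088, adjusted p = 0.00563, and 0.45 ± 0.088, adjusted p = 0.000499). The 4 h NFKBIE call ended with all 42 arrays in 1 fit (adjusted p = 0.0707). NFKBIZ had no called change in H1299 at the 5 times, with arrays between 5.19 and 6.04.

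To ask whether the lines responded differently, the change in H1299 was subtracted from that in H460 and the result was tested. The courses differed for 4 of the 9 members, NFKB2, RELB, NFKBIA and TNFAIP3, where 16.7% of all genes differed. At 2 h 3 members differed, all with the H460 change below the H1299 change, against 28.6% of all genes (18.5% in that direction). At 4, 8, 12 and 24 h 5, 3, 3 and 3 members differed, against 8.54%, 10.1%, 8.68% and 12.4% of all genes.

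NFKB2 and NFKBIA moved apart in opposite directions. For NFKB2 the difference was -0.58 ± 0.12 at 4 h (adjusted p = 0.00144), -0.89 ± 0.12 at 8 h (adjusted p = 2.12e-06), -0.64 ± 0.12 at 12 h (adjusted p = 0.000265) and -0.38 ± 0.12 at 24 h (adjusted p = 0.0229). The NFKB2 difference at 24 h ended with 0 h replicates 4 to 6 only (adjusted p = 0.0543), with 0 h replicates 1 to 3 only (-0.36, adjusted p = 0.0909) and without H460 24 h replicate 1 or H1299 24 h replicates 1 or 2 (adjusted p = 0.0526 to 0.0593). For NFKBIA the sign was the reverse, 0.44 ± 0.14 at 4 h (adjusted p = 0.0369), 0.92 ± 0.14 at 8 h (adjusted p = 2.02e-05), 0.67 ± 0.14 at 12 h (adjusted p = 0.00117) and 0.74 ± 0.14 at 24 h (adjusted p = 0.000235). The NFKBIA difference at 4 h ended in 1 of 9 settings and without H460 0 h replicates 1 or 5, H460 4 h replicates 2 or 3, H1299 0 h replicates 1 or 5 or H1299 4 h replicates 1, 2 or 3 (adjusted p = 0.0526 to 0.144). TNFAIP3 crossed over, with -1.02 ± 0.12 at 2 h (adjusted p = 3.39e-07), -0.43 ± 0.12 at 4 h (adjusted p = 0.0213) and 1.21 ± 0.12 at 24 h (adjusted p = 1.66e-09). The 4 h value did not pass without H460 4 h replicate 2 or H1299 4 h replicates 1 or 2 (adjusted p = 0.0521 to 0.0852), after median centring (-0.37, adjusted p = 0.0636) or with either 3 of the 6 arrays at 0 h (adjusted p = 0.0722 and 0.0843). With width as a covariate the 2 and 24 h values were -0.88 (adjusted p = 0.000427) and 1.15 (adjusted p = 6.88e-09). RELB differed by -0.53 ± 0.14 at 8 h (adjusted p = 0.00968) and -0.54 ± 0.14 at 12 h (adjusted p = 0.00916), which with 0 h replicates 4 to 6 only were -0.45 (adjusted p = 0.0888) and -0.47 (adjusted p = 0.0856).

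RELA and NFKBIZ had no called difference at the 5 times. For RELA the 24 h difference was -0.052 ± 0.12 (adjusted p = 0.817), with a 95% interval of -0.29 to 0.18, and for NFKBIZ it was 0.061 ± 0.17 (adjusted p = 0.856), with a 95% interval of -0.28 to 0.41. NFKB1 and REL differed at 2 h, by -0.65 ± 0.18 (adjusted p = 0.00651) and -0.75 ± 0.17 (adjusted p = 0.000877), on the narrow H460 arrays, and with width as a covariate these were -0.21 (adjusted p = 0.562) and -0.62 (adjusted p = 0.0569). The NFKB1 difference at 2 h was -0.39 without H460 2 h replicate 3 (adjusted p = 0.0928). At 4 h NFKB1 differed by -0.73 ± 0.18 (adjusted p = 0.00823), which did not pass without H460 4 h replicate 2 (adjusted p = 0.0602). For NFKBIE the courses did not pass (adjusted p = 0.0501), and the 4 h difference was -0.61 ± 0.18 (adjusted p = 0.0283), which became -0.42 (adjusted p = 0.232) with 0 h replicates 4 to 6 only and did not pass without H460 4 h replicates 1 or 3 or H1299 4 h replicates 1 or 2 (adjusted p = 0.0526 to 0.0745). NFKB2 averaged 8.72 ± 0.048 in H460 and 9.03 ± 0.10 in H1299 at 8 h (SD, n = 3 each), against 8.90 ± 0.12 in H460 and 8.32 ± 0.063 in H1299 at 0 h (SD, n = 6 each). The order of the lines for NFKB2 at 8 h was thus the reverse of that at 0 h. TNFAIP3 averaged 10.30 ± 0.023 in H460 and 5.55 ± 0.21 in H1299 at 24 h (SD, n = 3 each).

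**Figure D4:**
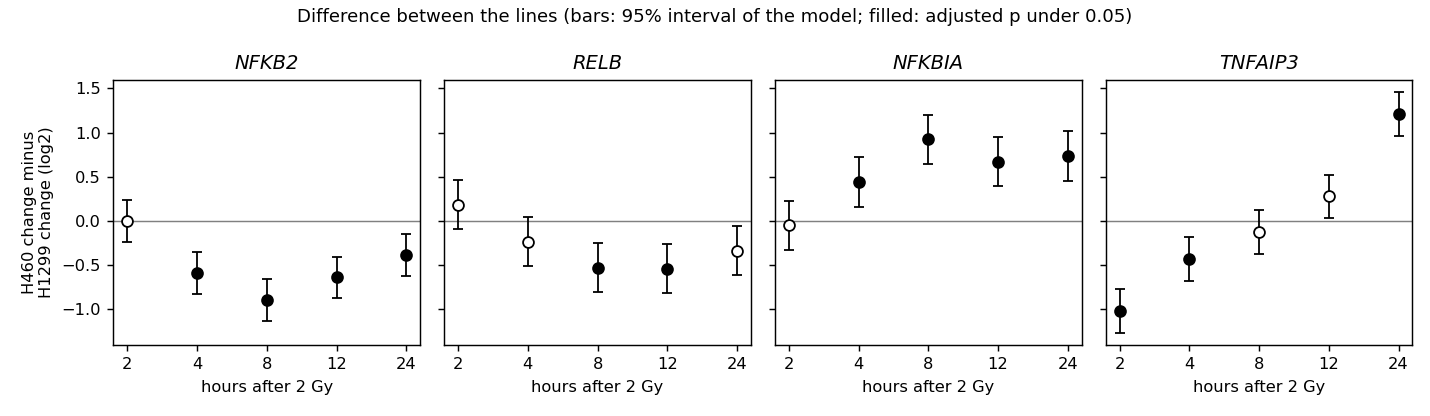
H460 change minus H1299 change (log2) at each time for 4 members, with bars for the 95% interval of the model and filled points for adjusted p under 0.05. The times are evenly spaced on the x axis. NFKB2 and RELB lie below 0 and NFKBIA above 0 at 8 h and 12 h, and TNFAIP3 runs upward with time, with -1.02 at 2 h and 1.21 at 24 h.

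The surrounding pathway was described with lists by role. At 0 h, of 19 measured receptors and adaptors 8 were higher and 5 lower in H460 (median 0.12, against 0.075 for all genes), where 55.1% of all genes were called, a background that also stands behind the 0 h counts of the next lists. IL1R1, a receptor of interleukin 1, averaged 6.59 ± 0.36 in H460 and 4.15 ± 0.25 in H1299 (SD, n = 6 each), a difference of 2.45 ± 0.15 (adjusted p = 3.06e-11). The adaptor MYD88 averaged 7.11 ± 0.17 in H460 and 5.05 ± 0.19 in H1299 (difference 2.06 ± 0.11, adjusted p = 1.85e-12). The lymphotoxin receptor LTBR averaged 8.31 ± 0.22 in H460 and 5.31 ± 0.18 in H1299 (8.02-fold, adjusted p = 5.42e-15). Of 15 measured genes of the IKK complex and its upstream kinases and ligases 7 were higher and 6 lower in H460 (median -0.12). MAP3K14, the NIK kinase of the second branch, averaged 6.38 ± 0.064 in H460 and 8.95 ± 0.15 in H1299 (difference -2.57 ± 0.080, adjusted p = 4.52e-16), so NIK and RELB were lower in H460 and NFKB2 was higher. MAP3K7, the TAK kinase that activates IKK, differed by -1.29 ± 0.066 (adjusted p = 1.45e-12). Of 28 measured target genes 15 were higher and 7 lower in H460 (median 0.57). The chemokine genes CXCL8 and CXCL1 differed by 5.77 ± 0.19 (adjusted p = 1.4e-15) and 5.88 ± 0.22 (adjusted p = 6.46e-15), and IL6 by 5.73 ± 0.14 (adjusted p = 1.71e-17).

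After irradiation 12 of 28 target genes rose and 5 fell in H460 at 24 h (median 0.35, against -0.052 for all genes), where 16.2% of all genes were called higher and 12.4% lower, so the share that fell was near the background. When width was a covariate 4 rose and 2 fell. In H1299 3 of 28 rose and 1 fell at 24 h (median -0.018, against 0.002), both near the 8.53% of all genes called higher and 3.21% called lower. The cytokine genes IL6, IL1A and IL1B rose in H460 by 1.44 ± 0.14 (adjusted p = 5.86e-08), 1.29 ± 0.18 (adjusted p = 8.66e-06) and 0.86 ± 0.15 (adjusted p = 0.000144), and the chemokine gene CCL20 by 1.39 ± 0.21 (adjusted p = 2.38e-05). The IL1A value was 0.78 (adjusted p = 0.0176) with width fitted. At 0 h in H1299 IL6, IL1A, IL1B and CCL20 averaged only 4.00, 2.97, 3.77 and 3.72 (n = 6 arrays). These levels lay within the 2.36 to 4.64 that the leukocyte genes PTPRC and CD3E spanned in the lines. In H1299 the rises were of the protease gene PLAU (1.22 ± 0.064, adjusted p = 2.1e-12), the adhesion gene ICAM1 (0.63 ± 0.084, adjusted p = 1.24e-05) and the stress gene IER3 (0.34 ± 0.094, adjusted p = 0.0178), of which that of IER3 ended without 24 h replicate 1 or 2, with 0 h replicates 4 to 6 only and with all 42 arrays in 1 fit. The stress gene GADD45B fell by 0.49 ± 0.073 (adjusted p = 5.83e-05).

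Among receptors and adaptors 5 of 19 rose and 2 fell in H460 at 24 h, against 16.2% and 12.4% of all genes, and 1 rose and 1 fell with width as a covariate. TLR3, a sensor of double-stranded RNA, rose by 0.96 ± 0.12 (adjusted p = 1.45e-06), or 0.80 (adjusted p = 0.00121) with width fitted. IL1R1 rose by 0.82 ± 0.17 (adjusted p = 0.000646), or 0.46 (adjusted p = 0.207) with width fitted. In H1299 at 8 h 7 of 15 genes of the IKK complex and its upstream enzymes rose (median 0.14, against -0.043), where 15.0% of all genes were called higher, and 2 with width fitted. The 2 that stayed called were MAP3K7 (0.34 ± 0.054, adjusted p = 6.1e-05) and BIRC2, a ubiquitin ligase of the TNF receptor complex (0.46 ± 0.075, adjusted p = 7.36e-05), whose value was 0.29 (adjusted p = 0.00263) with width fitted. At 24 h in H1299 4 of the 15 rose and 2 fell (median 0.12, against 0.002). Of all genes 8.53% were called higher and 3.21% lower there. MAP3K14 was among those that fell, by 0.48 ± 0.081 (adjusted p = 0.000253). In H460 at 8 h 2 of 15 genes of this list rose (median 0.14). There 16.9% of all genes were called in either direction and 6.22% called lower. With width fitted limma called 0 of the 15, with 0 at an unadjusted p under 0.05. At 2 h in H460, on the narrow arrays, 8 of the 15 and 5 of the 19 receptors and adaptors were lower, and 0 higher. Their medians were -0.21 and -0.17, against -0.011 for all genes. Of 28 target genes 3 were higher and 5 lower (median -0.075). At 2 h 40.4% of all genes were called and 23.7% called lower.

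The pattern of NFKB2 was closest to that of TRAF1, an adaptor of TNF receptors, among 12383 genes outside the list whose centred means spanned at least 0.5. Over the 12 group means, each line centred on its own mean, the Pearson correlation was 0.96, followed by LLGL1 (0.92) and SYNJ2 (0.92). TRAF1 averaged 6.42 ± 0.27 at 8 h in H1299 (SD, n = 3), against 5.74 ± 0.24 at 0 h (SD, n = 6), a change of 0.68 ± 0.13 (adjusted p = 0.000282). In H460 its 8 h change was -0.38 ± 0.15 (adjusted p = 0.0847). The TRAF1 means in H460 were low, between 4.18 at 4 h and 4.58 at 0 h. They lay within the 2.36 to 4.64 that PTPRC and CD3E spanned in the lines. With width fitted the TRAF1 values at 8 h were -0.70 (adjusted p = 0.0866) in H460 and 0.37 (adjusted p = 0.0137) in H1299. The genes closest to TNFAIP3 were SLC11A2 (0.96), FAT4 (0.96) and ITSN1 (0.95), and those closest to NFKBIA were HNRNPA1 (0.88), PLAAT1 (0.87) and POP4 (0.87). The 12 means share arrays and array width across genes, so these likenesses are a description of these samples.

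**Figure D5:**
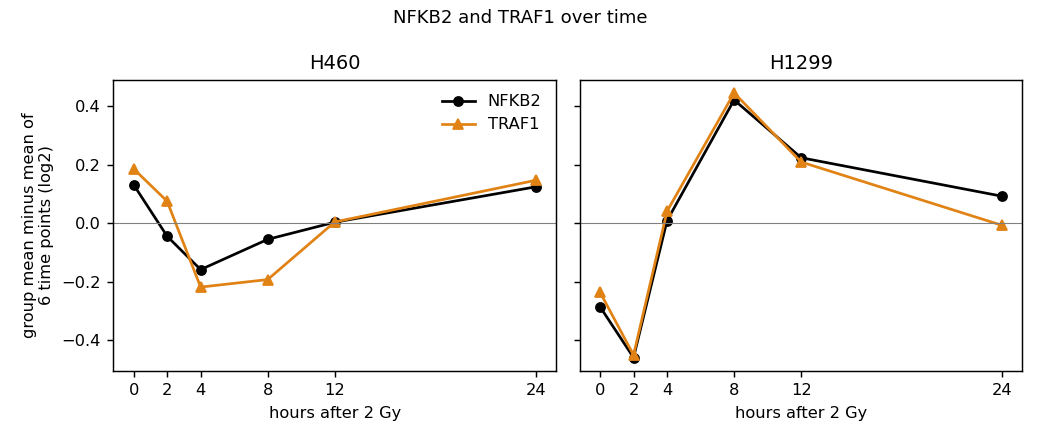
Group means of NFKB2 (black circles) and TRAF1 (orange triangles) minus the mean of the 6 time points of the line, in log2 units, against hours after 2 Gy, H460 left and H1299 right. In H1299 both are lowest at 2 h and highest at 8 h, with NFKB2 at 0.42 and TRAF1 at 0.44 above their means.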

How the data were processed

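Biotin-labelled target from 100 ng of total RNA was hybridised to 1-colour Affymetrix arrays, per the labels. The values used are normalized log2 signals as deposited by the authors, and how they were normalized is not given in the sources used here. They carry no detection calls. Of 32321 entries 19158 had 1 gene symbol, 1388 several and 11775 none in the probe table. Symbols were updated through gene IDs (19128 matched to RefSeq, GRCh38.p14), and each gene kept its brightest entry on average, which left 18404 genes with no filter. No pair of arrays was identical. Arrays within a group are biological replicates, per the labels.

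Tests used limma 3.58.1 in R 4.3.3 (lmFit, eBayes with trend, two-sided) on all genes, with Benjamini-Hochberg adjustment and a threshold of 0.05. Courses were moderated F-tests of quadratic regression over the 21 arrays of a line. Changes at a time used the same arrays, differences between lines all 42 and 0 h levels 12. The largest change over the times gives the direction of a course. Each kind of test was checked on simulated data with known changes. Precision is limited by the number of arrays. Members and lists were chosen with earlier results of these data known, so no list was tested. All members are named, as are up to 4 genes with the smallest p of a pathway list per comparison and the 3 genes most like TNFAIP3, NFKBIA and NFKB2. LTB and CCL2 are named besides, as target genes whose means went down in H460. Of 92 listed pathway genes 86 were measured. Alternatives were a filter on dim genes, quantile normalization, median centring, array width as a covariate, eBayes without trend, replicate numbers as a block, 3 of the 6 arrays at 0 h, narrow arrays left out, all arrays in 1 fit, other time scales and each array left out. They were extended to the pathway genes after the data were seen.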

Additional observations from a re-analysis of the deposited data

Results flagged for a closer look

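For 1 of the 18 gene and line groups of 6 arrays at 0 h, 1 array stood apart from the rest. RELB in H460 replicate 6 was at 6.73, with the nearest array at 6.96, and chance flags about 1 in 20 such groups. Without that array the RELB changes in H460 were -0.65 at 8 h, -0.81 at 12 h and -0.55 at 24 h, and its 24 h difference between the lines passed (-0.38, adjusted p = 0.0482).

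The response (H460 change minus H1299 change, limma interaction) differed between the lines for these members. For NFKB2 the differences were -0.58, -0.89, -0.64 and -0.38 at 4, 8, 12 and 24 h, for NFKBIA 0.44, 0.92, 0.67 and 0.74 at those times, for TNFAIP3 -1.02, -0.43 and 1.21 at 2, 4 and 24 h, and for RELB -0.53 and -0.54 at 8 and 12 h. NFKB1 differed by -0.65 at 2 h and -0.73 at 4 h, REL by -0.75 at 2 h and NFKBIE by -0.61 at 4 h. In the pathway lists the courses differed for TLR3 (largest difference 0.81), IL1R1 (1.07), TRAF1 (-1.06), TNFRSF12A (-0.49), UBE2V1 (0.25), RNF11 (0.36), TAX1BP1 (-0.89), IL6 (1.53), CCL20 (1.498), IL1A (1.36) and SOD2 (0.49). Of 53 alternatives 27 ended the UBE2V1 call, 19 that of RNF11, and 40 ended or turned that of TAX1BP1, and with width fitted these 3 did not pass (adjusted p = 0.0532, 0.0609 and 0.219).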

How the results depend on the processing

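Of 77 calls of a member in a comparison, 43 kept their direction and stayed called in all settings run and without any single array. They include the 0 h differences of all 8 called genes, NFKB2 in H1299 from 4 h on, NFKBIA in H1299 from 8 h on, TNFAIP3 at 24 h in both lines, RELB in H460 at 12 h, and the differences between the courses of NFKB2, RELB, NFKBIA and TNFAIP3. After median centring the number of members called was 0 for H460 4 h (against 1). With array width as a covariate the number of members called was 3 for the H460 course (against 5), 0 for H460 2 h (against 3), 0 for H460 8 h (against 2), 2 for H460 12 h (against 4), 1 for H460 24 h (against 3), 5 for H1299 2 h (against 2), 3 for H1299 8 h (against 6), 3 for H1299 12 h (against 5) and 1 for difference at 2 h (against 3). With a replicate block the number of members called was 0 for H460 4 h (against 1). With 0 h replicates 1 to 3 only the number of members called was 0 for H460 4 h (against 1). With 0 h replicates 4 to 6 only the number of members called was 3 for the H460 course (against 5), 1 for H460 8 h (against 2) and 2 for difference at 4 h (against 5). Without the narrow arrays the number of members called was 2 for H460 4 h (against 1) and 4 for H1299 2 h (against 2). With all 42 arrays in 1 fit the number of members called was 3 for H460 4 h (against 1). With 1 mean per time point the number of members called was 7 for difference of time courses (against 4). The width term cannot be told apart from time at 2 h in H460, where it left 0 of all 18404 genes called by limma (1528 at an unadjusted p under 0.05). At 8, 12 and 24 h in H460 it is also hard to tell apart from time. Where no member was called in these settings, limma gave 1 to 3 members an unadjusted p under 0.05. In the fits of 1 line the block sets aside 0 h replicates 4 to 6, which have no partner there. Leaving out 1 array, the number called ranged from 2 to 6 for difference at 4 h, 2 to 4 for H1299 2 h, 2 to 4 for H460 12 h, 3 to 5 for H460 2 h, 0 to 2 for H460 4 h, 1 to 3 for H460 8 h and 2 to 5 for the H460 course. It was 2 for the H460 course without 24 h replicate 1 or 2, 0 for H460 4 h without 0 h replicate 4 or 4 h replicate 1 or 3, 1 for H460 8 h without 8 h replicate 1 or 2, 2 for H460 12 h without 0 h replicate 2 or any 12 h array, and 2 for the difference at 4 h without H460 4 h replicate 2 or H1299 4 h replicate 1 or 2. The largest change of NFKB1 in H460 lay between -0.72 and 0.40 with 1 array left out, turning to 0.40 without 2 h replicate 3 and also without the narrow arrays. That of TNFAIP3 in H1299 lay between -0.55 and 0.47, turning to 0.44, 0.47 or 0.42 without 0 h replicate 6, 4 h replicate 3 or 24 h replicate 2, since its early rise and late fall were of like size. The largest difference between the courses turned to -0.69 for TLR3 with 0 h replicates 1 to 3 only, to -0.93 for IL1R1 after quantile normalization and to 0.50 for TAX1BP1 without the narrow arrays, and the causes were not tested. Same-numbered arrays of a line did not on the whole deviate together (median r = -0.024 in H460 and -0.058 in H1299 over 45 pairs each). For 6 pairs in H460 and 11 in H1299 r was over 0.1, so pairing by number is not settled. The replicate block moved no other count by over 1.5 times. The mean over entries of a gene was not run, since each member had 1 entry, and without the narrow arrays H460 had no 2 h value. The number of arrays, 3 per later time, limits what could be told apart.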

Other observations

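Of 19 other measured inhibitors of the pathway, 4 rose and 1 fell in H460 at 12 h (median 0.081, against -0.043 for all genes), and 4 rose and 2 fell in H1299 at 8 h (median 0.061, against -0.043). Of all genes 33.5% and 24.6% were called there, so these shares were not above the background in H460 and near it in H1299. With array width as a covariate 0 rose in H460 and 1 in H1299 (limma), with 2 of the H460 list at an unadjusted p under 0.05. At 2 h in H460, on the narrow arrays, 10 of the 19 were lower and 0 higher (median -0.22, against -0.011). There 23.7% of all genes were called lower. The ubiquitin ligase gene ITCH rose in both lines, by 0.30 ± 0.082 at 12 h in H460 (adjusted p = 0.00773) and by 0.36 ± 0.066 at 8 h in H1299 (adjusted p = 0.000278). The H460 value was 0.28 (adjusted p = 0.208) with width fitted and 0.15 (adjusted p = 0.192) after quantile normalization, and the H1299 value was 0.22 (adjusted p = 0.011) with width fitted. TAX1BP1, which encodes an adaptor of TNFAIP3, rose by 0.64 ± 0.14 at 24 h in H460 (adjusted p = 0.00149), or 0.26 (adjusted p = 0.408) with width fitted. At 0 h 6 of these 19 genes were higher and 7 lower in H460 (median 0.059, against 0.075 for all genes). Of all genes 55.1% were called there. ZC3H12A, which encodes an RNase that degrades inflammatory mRNAs, was among the higher ones. It averaged 8.23 ± 0.22 in H460 and 6.50 ± 0.16 in H1299 (SD, n = 6 each), a difference of 1.74 ± 0.11 (adjusted p = 1.76e-11). RNF11 was among the lower ones, with a difference of -1.04 ± 0.083 (adjusted p = 1.23e-09).

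Of 5 measured genes of the DNA damage arm that links breaks to IKK, 2 rose in H1299 at 8 h, ATM by 0.96 ± 0.11 (adjusted p = 1.55e-06) and ERC1 by 0.24 ± 0.081 (adjusted p = 0.0306). There 15.0% of all genes were called higher. The ERC1 value was 0.065 (adjusted p = 0.647) with width fitted, and the call ended in 8 of 31 alternatives, among them leaving out any 1 of the 3 arrays at 8 h. In H460 at 12 h 1 of 5 rose, ATM by 0.90 ± 0.15 (adjusted p = 0.000101), or 0.58 (adjusted p = 0.111) with width fitted. At that time 33.5% of all genes were called in either direction and 16.8% called lower. The kinase ATM, which senses DNA double-strand breaks, was called at 8 h in H1299 under each setting run and without any 1 array of that line. At 2 h in H460, on the narrow arrays, 3 of the 5 were lower and 0 higher (median -0.31, against -0.011). There 23.7% of all genes were called lower. At 0 h 1 of these 5 genes was higher and 3 were lower in H460 (median -0.27, against 0.075 for all genes). Of all genes 55.1% were called there. PARP1, a sensor of DNA breaks, was the higher one, by 1.15 ± 0.084 (adjusted p = 3.43e-10). ATM was among the lower ones, with a difference of -0.54 ± 0.13 (adjusted p = 0.00133).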
